A study of Mus musculus with 3 samples.

Results

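The D cyclins, the E cyclins, the kinases Cdk4 and Cdk6 and the Cdk inhibitors Cdkn1a, Cdkn1b and Cdkn2a were taken by symbol from the annotation of the array, 10 genes in all. Of these, 9 were among the 22180 genes with a probe set that carries their symbol alone, each with 1 such probe set, and that value was used. Ccne2 shared its probe set with Ints8 and was not analysed here. The cells came from EB3, an established mouse embryonic stem cell (mESC) line, and were compared in 3 media based on N2B27, with 1 Affymetrix Mouse Gene 2.0 ST array for each. In the medium called Activin+PD, mESCs had spent 64 days with Activin A at 20 ng/ml, a ligand that signals through SMAD2/3, and the MEK inhibitor PD0325901 at 2 µM. In 2i, mESCs had spent 34 days with PD0325901, again at 2 µM, and with CHIR99021 at 2 µM, a GSK3 inhibitor that raises beta-catenin. The mouse epiblast stem cells (mEpiSCs), induced from EB3 mESCs, were held in Activin A at 20 ng/ml with bFGF at 12 ng/ml, and no MEK inhibitor is listed for them. Their time in culture, and whether any culture was a single clone, are not given in the sources used here.

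These genes run the step from G1 into S phase. D cyclins bind Cdk4 or Cdk6, E cyclins bind Cdk2, and both kinds of complex phosphorylate Rb proteins, which frees E2F factors to switch on DNA replication genes. Growth factor signals, among them ERK and beta-catenin signalling, act on transcription of D cyclin genes, and the inhibitors hold the kinases back. Mouse embryonic stem cells are known for a short G1 phase.

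No group had a replicate, so nothing was tested, and "higher" and "lower" describe these 3 arrays. The authors' intensities were put on the log2 scale, and a difference is the log2 intensity on the first-named array minus that on the second. The 3 comparisons share arrays, and the third is fixed by the other two. The error at hand was that of the probe sets, taken from 619 genes read by several of them. As a standard deviation of a log2 difference it was 0.24 between Activin+PD and 2i, 0.36 between mEpiSCs and 2i and 0.33 between mEpiSCs and Activin+PD, and it leaves out the variation between cultures. Background was a log2 intensity of 5.50 in Activin+PD, 5.59 in 2i and 5.57 in mEpiSCs, set from probe sets of olfactory and vomeronasal receptors. All 10 naive pluripotency markers were above background in both mESC cultures and 6 of 10 in mEpiSCs. The primed markers above background numbered 9 of 10 in Activin+PD, 8 of 10 in 2i and 10 of 10 in mEpiSCs. Of all 22180 genes, 62.1% were above background in Activin+PD, 60.1% in 2i and 61.6% in mEpiSCs. These counts do not show levels. For mEpiSC minus 2i, 9 of the 10 naive markers were lower by 2-fold or more, with a median difference of -3.65. Their summed intensity was 8784 in 2i and 591 in mEpiSCs. Of the 10 primed markers, 8 passed 2-fold on the positive side, with a median of 2.93. For Activin+PD minus 2i, 4 of the 9 primed markers compared did so (Fgf5, Otx2, Dusp6 and Igfbp3). None passed 2-fold on the negative side there, where Dnmt3b, Fst and Zic2 were lower, at -0.60, -0.60 and -0.12. The median of the 9 was 0.32. In the same comparison none of the 10 naive markers was 2-fold apart, with a median of 0.075. The summed intensity of the naive markers was 10150 in Activin+PD, beside 8784 in 2i. Of 10 fibroblast markers, which would show feeder cells, 5 were above background in Activin+PD and 6 in each of the others. These fibroblast counts are not above the shares over all genes. The summed intensities of the fibroblast markers were 537, 536 and 612 in Activin+PD, 2i and mEpiSCs. Col1a1, Col1a2, Col3a1, Thy1 and Pdgfrb were above background on all 3 arrays, with Col1a1 0.54 higher in mEpiSCs than in 2i, and Dcn, Lum, Postn and Fap were below it on all 3. The part of such cells in the differences below was not tested.

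Some of the measured genes were at least 2-fold apart between media and others were not. Ccnd2 was 10.3-fold higher in Activin+PD than in 2i, whereas Ccnd1 was 2.08-fold lower. Cdk6 was 3.80-fold higher and Cdkn2a 3.23-fold lower in mEpiSCs than in 2i. Cdk4, Ccne1 and Cdkn1b had ranges of 0.13, 0.33 and 0.069 on the log2 scale over the 3 cultures. These are bulk samples, in which fewer cells with a transcript and less of it per cell cannot be told apart.

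**Figure D1:**
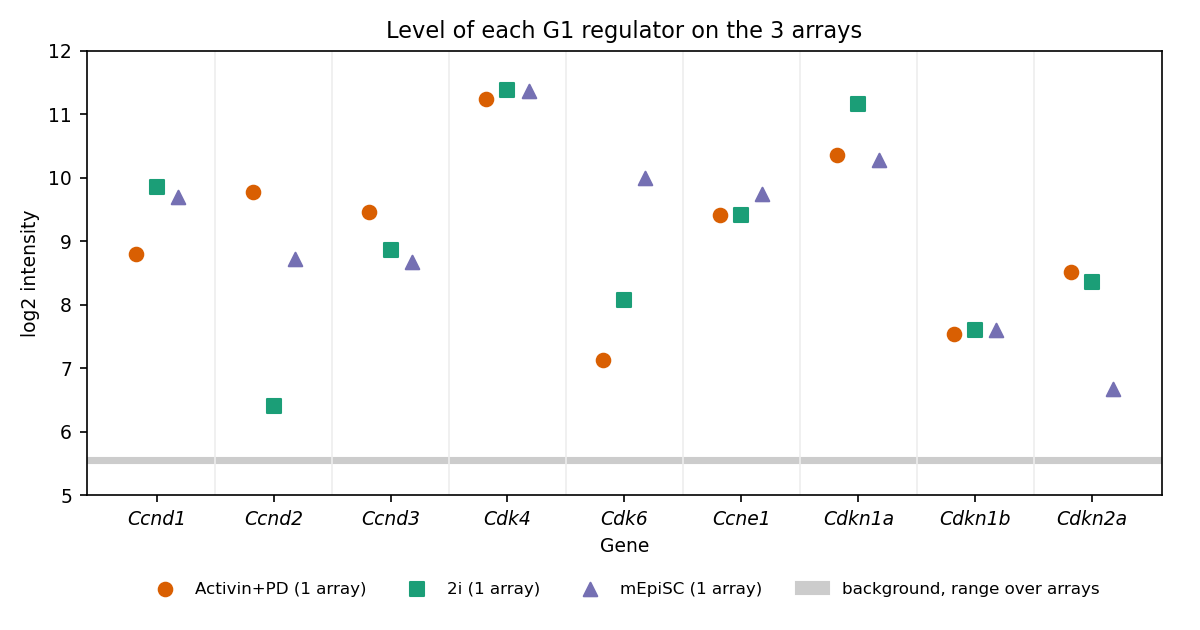
Log2 intensity (vertical axis) of the 9 measured G1 regulators (horizontal axis), with 1 point per array and the range of the arrays' backgrounds as a grey band. Ccnd2 spans 3.37, Cdk6 2.87 and Cdkn2a 1.85 on the log2 scale. The points of Cdk4 stand side by side at nearly equal heights, and so do those of Cdkn1b at a lower level.

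The D cyclins carry outside signals to the G1 kinases, and each of the 3 genes had its own order over the cultures. Ccnd2, on chromosome 6, had an intensity of 876 in Activin+PD, 85.0 in 2i and 422 in mEpiSCs. Both other cultures were thus far above the 2i culture, where the gene was 0.82 above background on the log2 scale. The 2i culture was the only one without Activin A and also the only one with CHIR99021, so the 2 cannot be told apart. The mESC cultures also differed in time, at 64 days in Activin+PD and 34 in 2i. The difference was 3.37 for Activin+PD minus 2i and 2.31, or 4.96-fold, for mEpiSC minus 2i. Activin+PD was also 2.08-fold above mEpiSCs, a difference of -1.06 for mEpiSC minus Activin+PD against a probe set error of 0.33. Of 14003 genes compared between Activin+PD and 2i, 2 had a larger positive difference than Ccnd2.

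Ccnd1, on chromosome 7, encodes a D cyclin known as a target of ERK and beta-catenin signalling. Its intensity was 445 in Activin+PD, 927 in 2i and 827 in mEpiSCs. The Activin+PD culture was the low one, at -1.06 against 2i, and 2i and mEpiSCs lay within the probe set error of each other, at -0.16. The difference of 0.89 for mEpiSC minus Activin+PD, 1.86-fold, was 2.69 times the probe set error and short of 2-fold. In the comparison of Activin+PD with 2i, 100 of the 14003 genes lay further down than Ccnd1. That value stands close to the 2-fold limit, with a fold of 2.08.

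Ccnd3, on chromosome 17, had an intensity of 707 in Activin+PD, 468 in 2i and 409.6 in mEpiSCs. Activin+PD was again the high culture, as for Ccnd2, but by 0.60 over 2i and, as mEpiSC minus Activin+PD, by -0.79, neither of them 2-fold. Between mEpiSCs and 2i the difference of -0.19 was within the probe set error.

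Set against each other, the D cyclins shifted by unequal amounts. The ratio of Ccnd2 to Ccnd1 was 21.5-fold higher in Activin+PD than in 2i, a difference between their log2 differences of 4.42 with an error of 0.34. It was 5.56-fold higher in mEpiSCs than in 2i and 3.86-fold lower in mEpiSCs than in Activin+PD. The ratio of Ccnd3 to Ccnd1 was 3.15-fold higher in Activin+PD than in 2i, and 1.02-fold apart between mEpiSCs and 2i. Hence 2i was the culture with low Ccnd2 beside high Ccnd1, Activin+PD the one with high Ccnd2 and Ccnd3 beside low Ccnd1, and mEpiSCs had Ccnd1 near its 2i level and Ccnd2 between the other cultures. A ratio of this kind shows unequal change and does not give how much of either protein was present.

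**Figure D2:**
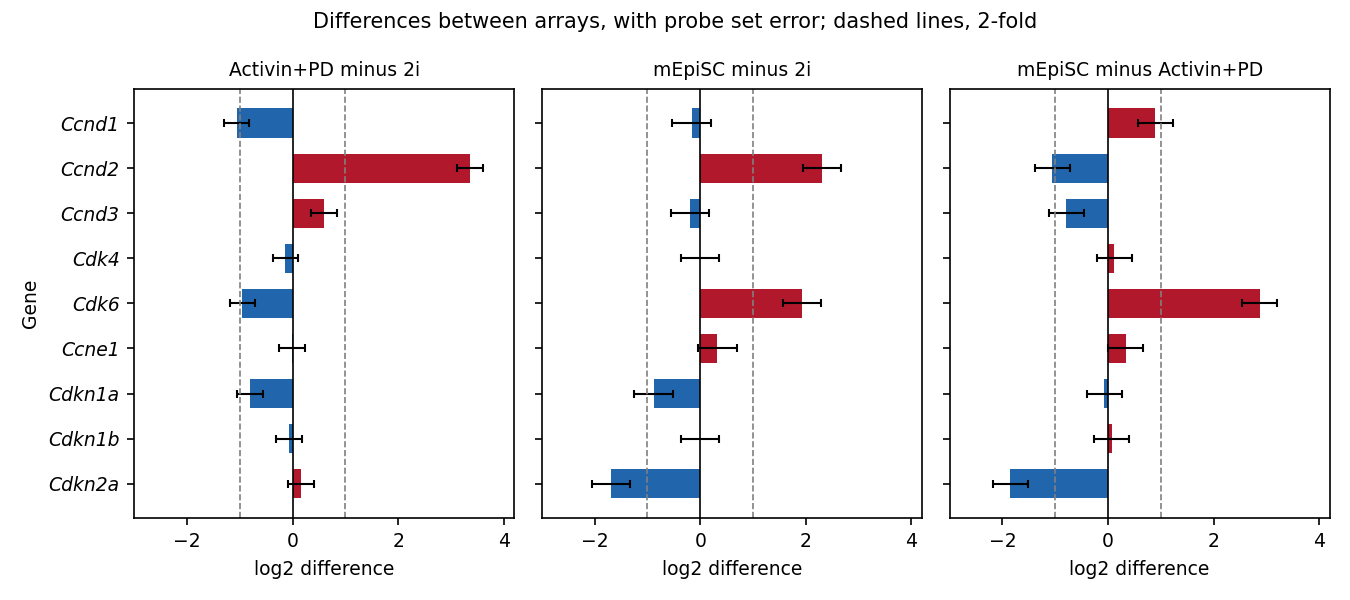
Log2 difference (horizontal axis) of each measured gene in the 3 comparisons, with bars starting at 0, whiskers of 1 probe set error and dashed lines at 2-fold. Red bars are higher and blue bars lower on the first-named array. Ccnd2 and Ccnd1 lie on opposite sides of 0 in Activin+PD minus 2i, and Cdk6 and Cdkn2a lie on opposite sides in both comparisons of mEpiSCs.

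The kinases that D cyclins bind behaved differently from each other. Cdk4, on chromosome 10, had an intensity of 2432 in Activin+PD, 2668 in 2i and 2647.5 in mEpiSCs, with all 3 differences within the probe set error. Cdk6, on chromosome 5, had 139.75 in Activin+PD, 269.6 in 2i and 1024 in mEpiSCs, so the cultures were well separated and mEpiSCs were the high one. The difference was 1.93 for mEpiSC minus 2i and 2.87, or 7.33-fold, for mEpiSC minus Activin+PD. Of 14375 genes compared in the latter, 35 had a larger positive difference. Between the mESC cultures Cdk6 was 1.93-fold lower in Activin+PD, a difference of -0.95 that is 3.90 times the probe set error and just short of 2-fold. With a constant of 16 taken off every intensity, it became -1.04 and passed 2-fold. The ratio of Cdk6 to Cdk4 was 3.83-fold higher in mEpiSCs than in 2i and 6.73-fold higher than in Activin+PD.

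The promoters of both kinase genes are shown to set the sequence beside the values. Myc, a factor that binds the E-box CACGTG, was 4.38-fold higher in mEpiSCs than in 2i. Its log2 intensity was 7.95 in Activin+PD, 7.73 in 2i and 9.86 in mEpiSCs. Each run holds the 250 bases before a transcription start from RefSeq (GRCm38.p6), 5′ to 3′, at chr10:127063285-127063534 for Cdk4 and chr5:3343643-3343892 for Cdk6, both on the plus strand. The Cdk6 gene as annotated begins further upstream, at position 3341004, so its window lies inside the gene. The sequence before that upstream end was not searched. Capitals mark exact matches, on either strand, to the E-box CACGTG, the GC box GGGCGG, the TCF/LEF core CTTTGA, the TATA box TATAAA, the E2F sites TTTCCCGC and TTTGGCGC or the SMAD box GTCTAGAC. Bases shared by overlapping matches would be in capitals once, and no matches overlapped in the runs printed.
Cdk4: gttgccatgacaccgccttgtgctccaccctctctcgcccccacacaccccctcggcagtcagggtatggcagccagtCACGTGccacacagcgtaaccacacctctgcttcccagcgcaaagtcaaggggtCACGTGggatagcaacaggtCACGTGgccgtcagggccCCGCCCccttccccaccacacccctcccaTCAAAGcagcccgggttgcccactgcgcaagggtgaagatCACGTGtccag
Cdk6: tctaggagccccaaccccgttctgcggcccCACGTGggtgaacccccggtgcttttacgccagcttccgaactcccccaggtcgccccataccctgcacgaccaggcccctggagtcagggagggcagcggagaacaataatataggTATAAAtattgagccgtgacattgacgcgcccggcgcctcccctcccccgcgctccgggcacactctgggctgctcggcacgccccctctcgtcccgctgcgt
The Cdk4 window had 4 E-boxes, at 172, 118, 98 and 11 bases before the start, 1 GC box and 1 TCF/LEF core. The Cdk6 window had 1 E-box, 220 bases before the start, and 1 TATA box match, 103 bases before the start. Of 32851 promoter windows of this length, 6.02% held the E-box and 7 windows held at least 4 of them, the Cdk4 window included. The GC box was in 32.7%, the TCF/LEF core in 13.8% and the TATA box in 12.4% of windows. A match of letters does not show that a factor was bound, and whether Myc acts on either gene here was not tested. Promoter windows were at hand for 7 of the 10 genes, and for Ccnd1, Ccnd2 and Ccne2 none was used here.

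The E cyclins act after the D cyclins, with Cdk2. Ccne1, on chromosome 7, had an intensity of 682 in Activin+PD, 685 in 2i and 858 in mEpiSCs. The mESC cultures were alike and mEpiSCs a little higher, with differences of 0.33 against 2i and 0.33 against Activin+PD. Each was just under the probe set error. Among genes with both probe sets bright, at a mean log2 intensity of at least 7, that error was smaller, at 0.29 and 0.25. Both differences exceeded it, well short of 2-fold. Cdk2, its partner kinase, had a log2 intensity of 9.50, 9.72 and 9.65 in Activin+PD, 2i and mEpiSCs, a spread of the same order.

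Among the Cip/Kip inhibitors, which bind cyclin-Cdk complexes, Cdkn1a (p21) differed and Cdkn1b (p27) did not. Cdkn1a, on chromosome 17, had an intensity of 1307 in Activin+PD, 2294.5 in 2i and 1243 in mEpiSCs. The 2i culture was the high one, with differences of -0.81 for Activin+PD minus 2i and -0.88 for mEpiSC minus 2i, or 1.76-fold and 1.85-fold. They were 3.33 and 2.45 times the probe set error and both short of 2-fold. Activin+PD and mEpiSCs were within that error of each other, at -0.073. Cdkn1b, on chromosome 6, had an intensity of 186, 195.5 and 195.4 in Activin+PD, 2i and mEpiSCs, and no pair of cultures was further apart than 1.05-fold. The third gene of the family, Cdkn1c (p57), had log2 intensities of 8.09, 7.74 and 8.28 in the same order and was lowest in 2i, by 0.35 against Activin+PD and 0.54 against mEpiSCs.

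Cdkn2a, on chromosome 4, encodes an inhibitor of Cdk4 and Cdk6, p16Ink4a, and from another first exon p19Arf, which acts on p53 through Mdm2. Its intensity was 367 in Activin+PD, 329 in 2i and 102 in mEpiSCs. The mESC cultures were within the probe set error of each other, at 0.16, and mEpiSCs were low but still 1.10 above background on the log2 scale. The difference was -1.69 for mEpiSC minus 2i and -1.85, or 3.60-fold, for mEpiSC minus Activin+PD. Cdkn2b, the neighbouring gene that encodes p15Ink4b, was at log2 intensities of 7.22, 7.34 and 6.89 in Activin+PD, 2i and mEpiSCs and so was lowest in mEpiSCs too, within 2-fold. Cdkn2d had 7.97, 7.87 and 7.19, with -0.68 for mEpiSC minus 2i, and Cdkn2c was not above background on any array.

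Both starts of Cdkn2a are shown because a single gene-level value cannot tell their transcripts apart. The windows were read from RefSeq as above, on the minus strand, with the same matches in capitals. The upstream start, which gives p19Arf, has its window at chr4:89294620-89294869, and the downstream one, which gives p16Ink4a, at chr4:89282193-89282442.
Upstream start: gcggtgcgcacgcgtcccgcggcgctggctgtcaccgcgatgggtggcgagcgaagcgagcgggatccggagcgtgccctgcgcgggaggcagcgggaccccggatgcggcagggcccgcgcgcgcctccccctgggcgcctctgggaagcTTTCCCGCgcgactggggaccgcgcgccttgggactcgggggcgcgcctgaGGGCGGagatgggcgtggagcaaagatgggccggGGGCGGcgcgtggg
Downstream start: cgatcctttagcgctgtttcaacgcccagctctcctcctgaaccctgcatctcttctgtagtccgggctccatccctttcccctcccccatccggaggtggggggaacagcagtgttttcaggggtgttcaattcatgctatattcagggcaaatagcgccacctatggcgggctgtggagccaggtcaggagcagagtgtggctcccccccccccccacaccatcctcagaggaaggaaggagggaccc
The windows were unlike each other. The upstream one had 40 CpG dinucleotides, more than 98.7% of all windows, with 1 E2F match TTTCCCGC at 99 bases before the start and 2 GC boxes. The downstream one had 7, near the median of 6 over all windows, and none of the motifs searched. The E2F site TTTCCCGC was in 0.895% of windows. Which of the starts gave the lower value in mEpiSCs was not tested.

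Of the 9 genes, 1 was at least 2-fold higher and 1 lower in Activin+PD than in 2i, beside 1.38% and 0.821% of the 14003 genes compared. Those genes were Ccnd2 and Ccnd1. For mEpiSC minus 2i, 2 were higher (Ccnd2 and Cdk6) and 1 lower (Cdkn2a), beside 4.54% and 4.96% of 14200 genes. For mEpiSC minus Activin+PD, 1 was higher (Cdk6) and 2 lower (Ccnd2 and Cdkn2a), beside 3.59% and 5.38% of 14375 genes. In either direction together, 2.2%, 9.5% and 8.97% of all compared genes were 2-fold apart in the 3 comparisons, against 22.2%, 33.3% and 33.3% of the members. The members' shares rest on 9 genes chosen with earlier results of these data known, and no excess was tested. All 9 were above background on every array, whereas a compared gene needed only its brighter array above it. The members' median differences of -0.069, -0.011 and 0.068 stood beside -0.0056, 0.031 and 0.042 over all compared genes.

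**Figure D3:**
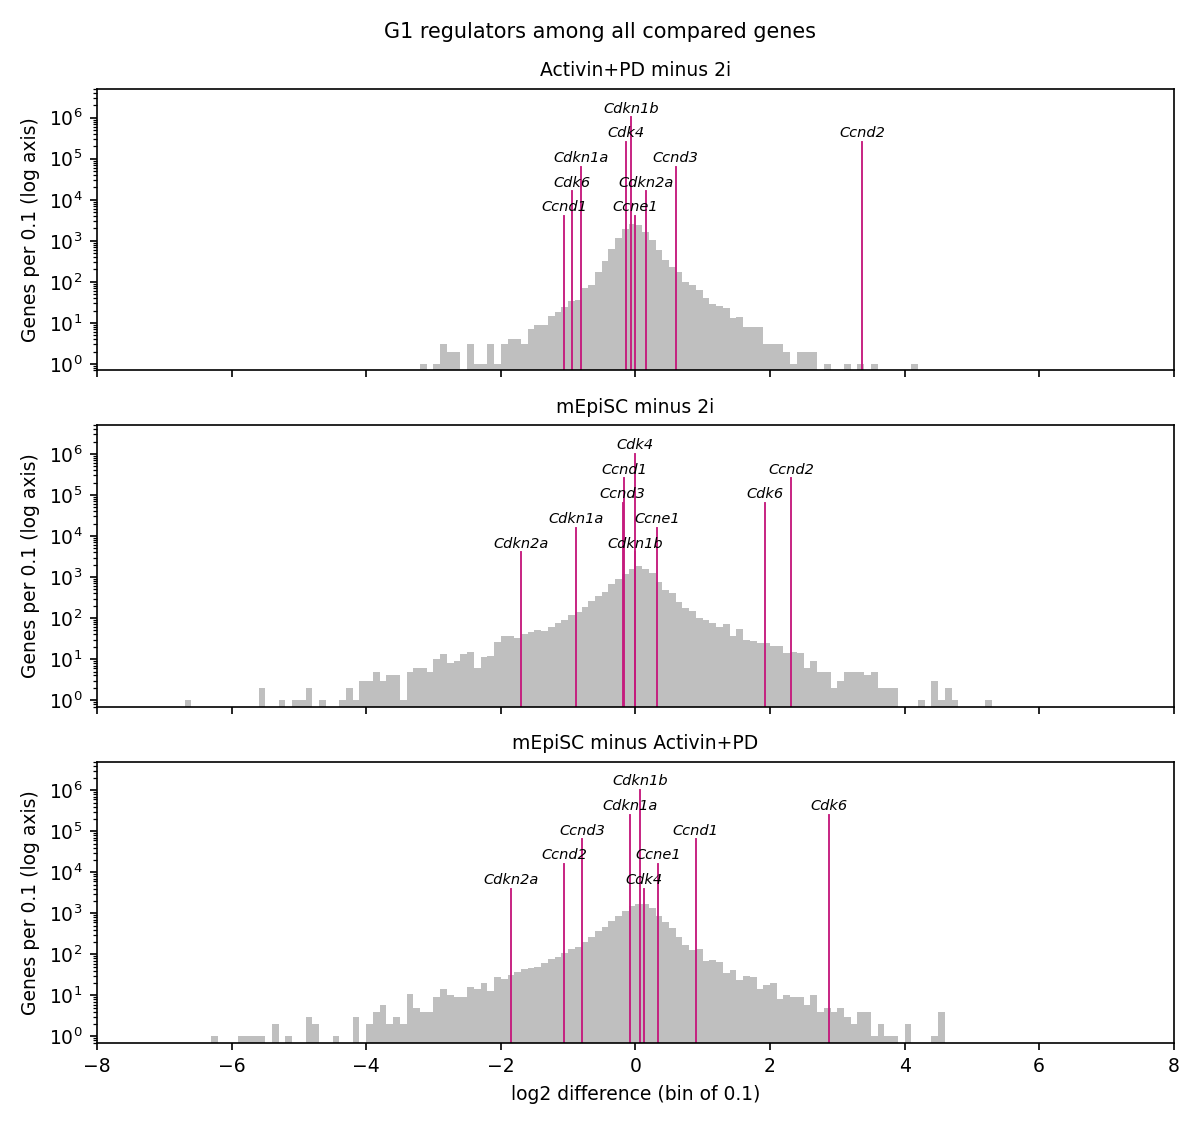
Number of genes per 0.1 of log2 difference (vertical axis, logarithmic) for all genes compared, with the measured G1 regulators as pink lines whose heights only stagger the labels. Ccnd2 in Activin+PD minus 2i and Cdk6 in mEpiSC minus Activin+PD lie in the thin upper tail, while Cdkn1b and Cdk4 lie at the centre of all 3 distributions.

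The other genes of the G1/S pathway were a list of 75, of which 69 were measured by a probe set of their own and 67 compared. Between Activin+PD and 2i none of the 67 was 2-fold apart in either direction, beside 2.2% of all genes. For mEpiSC minus 2i, 1 was higher and 3 lower, together 5.97% of the list beside 9.5% of all genes. For mEpiSC minus Activin+PD the counts were again 1 and 3. The 4 genes were the same in both. Myc stood at 2.13 and 1.92 against 2i and Activin+PD. Rbl2 (p130), a relative of Rb1, stood at -1.36 and -1.54, and Gadd45g, a growth arrest gene, at -1.68 and -1.98. Mdm4, an inhibitor of p53, stood at -1.29 and -1.01. The latter value is at the edge of 2-fold, and after quantile normalisation 2 pathway genes and no longer Mdm4 were lower than in Activin+PD. Trp53, the gene of p53 itself, was not analysed here.

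The Rb gene, Rb1, was higher in Activin+PD, with log2 intensities of 8.997, 8.18 and 8.09 in Activin+PD, 2i and mEpiSCs. Its difference of 0.82 for Activin+PD minus 2i was the largest of the pathway list in that comparison, and a further probe set of the gene stayed below background throughout. The activators that Rb proteins bind went both ways, all within 2-fold. E2f1 had 7.77, 7.69 and 7.13 and E2f2 had 6.83, 6.58 and 6.16, both lowest in mEpiSCs, whereas E2f3 had 8.02, 8.31 and 8.67 and was highest there. E2f6, which acts as a repressor, had 7.995, 7.69 and 8.65 and was highest there, at 0.96 over 2i and just short of 2-fold. E2f4, E2f5, E2f7 and E2f8 were also highest in mEpiSCs, at 0.57, 0.57, 0.62 and 0.74 over 2i. Over the 13 Rb and E2F genes the median difference was 0.16 for Activin+PD minus 2i and 0.37 for mEpiSC minus 2i, beside -0.0056 and 0.031 over all genes.

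Downstream of these regulators the cultures were close. All 15 replication genes that E2F is known to act on, such as the Mcm helicase genes and Pcna, were within 2-fold in all 3 comparisons. Their differences ran from -0.32 to 0.14 for Activin+PD minus 2i and from -0.63 to 0.17 for mEpiSC minus 2i. In the latter their median was -0.19, beside 0.031 over all genes. For mEpiSC minus Activin+PD they ran from -0.62 to 0.31. Ccna2, the S phase cyclin, had log2 intensities of 10.66, 10.77 and 10.80 in Activin+PD, 2i and mEpiSCs. Cdk1, the mitotic kinase, had 9.95, 9.83 and 9.43 and was lowest in mEpiSCs. Skp2, which marks Cdkn1b protein for breakdown, had 9.86, 9.82 and 9.94, and Mycn, the Myc relative that mESCs also express, had 8.38, 8.21 and 8.23. The 11 genes of turnover and activation of the G1 kinases ranged from -0.18 to 0.38 for Activin+PD minus 2i. Their range was wider with mEpiSCs, from -0.48 to 0.51 against 2i and from -0.74 to 0.44 against Activin+PD.

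**Figure D4:**
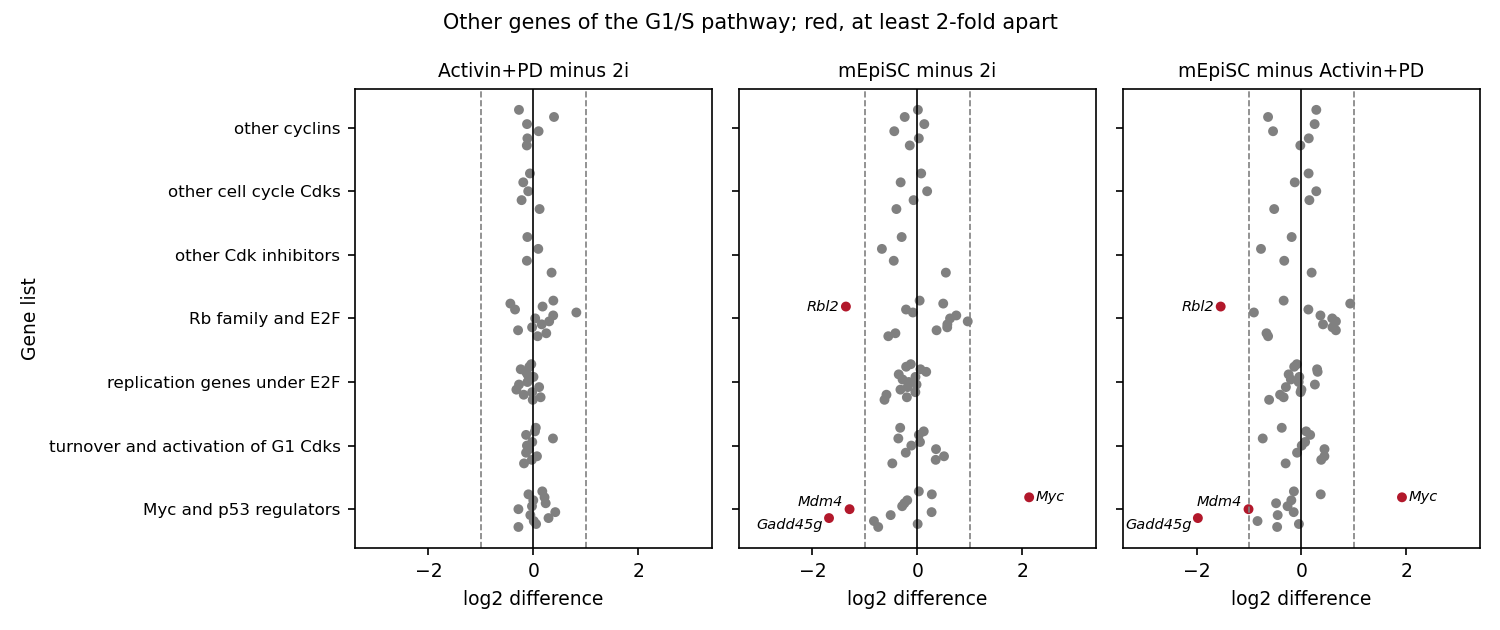
Log2 difference (horizontal axis) of the compared genes of 7 lists of the G1/S pathway (vertical axis), with 1 point per gene, dashed lines at 2-fold and genes past it in red with their names. The first panel has no red point, and Myc, Rbl2, Mdm4 and Gadd45g are red in both panels of mEpiSCs.

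Few genes had differences close in size to both of those of Ccnd2. Likeness was the distance between 2 genes in their differences Activin+PD minus 2i and mEpiSC minus 2i, among 14525 other genes above background on an array. No gene lay within 0.5 of Ccnd2, and the nearest were Fgf15 at 0.73, Gm5797 at 0.99 and Crmp1 at 1.08. A fixed distance holds fewer genes where differences are large, so this does not count the genes that shared the directions of Ccnd2. Crmp1, for example, was higher in both differences, at 3.20 and 3.38. Fgf15 stood at 2.65 and 2.18 in the 2 differences on the probe set used, but at 0.13 and 0.093 on its second one. For Cdk6, 7 genes lay within 0.5, and the nearest were BC064078 at 0.10, Vwa5a at 0.20 and Gja1 at 0.34. Gja1, which encodes a gap junction protein, stood at -0.95 and 2.27.

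More genes lay near the other D cyclins and Cdkn2a, whose differences were smaller than those of Ccnd2. Within 0.5 lay 79 genes for Ccnd1, 175 for Cdkn2a and 1646 for Ccnd3. The nearest to Ccnd1 were Irf3 at 0.14, Nsd2 at 0.14 and Plcl2 at 0.17, the last of them not above background in Activin+PD. The nearest to Cdkn2a were Gprc5b, Calhm5 and Nlrp4a at 0.019, 0.033 and 0.036, of which Calhm5 and Nlrp4a were not above background in mEpiSCs. The nearest to Ccnd3 were Ap3m2, Pgghg and Megf11, at 0.013, 0.029 and 0.030. With 3 arrays these distances describe the values and carry no error between cultures.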

How the data were processed

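Total RNA of 3 cultures was read on 1 array each. Per the submitters' processing notes the deposited intensities came from RMA, and the series' design text names GeneSpring GX 11.5. From the values they are intensities on a linear scale, 1 per probe set. The sources used here do not say whether a constant was added, which would make folds of dim genes smaller. Normalisation by the authors makes the arrays' distributions alike, so total RNA per cell is not visible.

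Of 33793 probe sets, 23521 had 1 gene symbol in the platform annotation, 1814 several and 8458 none listed, and only probe sets with 1 symbol named a gene. For 23328 of them the symbol was taken from RefSeq by Entrez identifier, whether or not it differed from the annotated one. Genes with several probe sets took the one with the highest mean. Log2 was taken of each intensity, with no pseudocount. Background was the 95th percentile of 1400 olfactory and vomeronasal receptor probe sets. Genes entered a comparison if the brighter array was above its background, and counted as apart at 2-fold. Probe set error was the standard deviation, over 619 genes, of the disagreement between each gene's 2 brightest probe sets, over the square root of 2. The number of arrays limits the precision, and no p-value was computed.

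The genes and lists were chosen with earlier results of these data known. Named were all members, the pathway genes at least 2-fold apart (at most 6 each way per comparison), some fixed pathway neighbours and the 3 genes most like each D cyclin and each other member 2-fold apart. E2f2, E2f3, E2f4, E2f5, E2f6, E2f7, E2f8 and the fibroblast genes were singled out after their values were seen. Promoter sequences came from RefSeq (GRCm38.p6). Python 3.11.15, numpy 2.4.6 and pandas 2.3.3 were used.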

Additional observations from a re-analysis of the deposited data

How the results depend on the processing

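The alternatives were median centring, quantile normalisation, 16 subtracted from each intensity, values below background raised to it, the mean of a gene's probe sets, a background at the 99th percentile and no filter on dim genes. Of 189 differences of members under them, 188 moved by less than the probe set error, and none of the differences of at least 2-fold changed sign. The exception was Ccnd2 for Activin+PD minus 2i, at 3.64 with 16 subtracted. Most of these values could not move, since each member had 1 probe set and was above background on every array. Raising dim values, averaging probe sets, the 99th percentile background and dropping the filter therefore left every member's difference as it was. Median centring shifts all genes of a comparison alike. Only quantile normalisation and the subtraction could change members unequally. With 16 subtracted, 2 members were at least 2-fold lower in Activin+PD than in 2i (Cdk6 beside Ccnd1), the difference between Ccnd2 and Ccnd1 was 4.73 there, and 2 pathway genes were at least 2-fold higher in mEpiSCs than in 2i. The same setting raised the genes at least 2-fold higher in Activin+PD than in 2i from 193 to 295. These shifts follow from its construction, since subtraction widens the folds of dim genes. Differences near 0, such as those of Ccne1 and Cdkn1b, took either sign. No array could be left out for lack of replicates. No paired analysis was possible because each group had 1 array. Genes near background, such as Ccnd2 in 2i, are limited by their low signal.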
